A study of Mus musculus with 4 samples.

Results

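The genes described here are 10 factors of the anterior primitive streak, the node and the definitive endoderm: the transcription factors *Eomes*, *Gsc*, *Lhx1*, *Hhex*, *Foxa2*, *Foxa1* and *Sox17*, the chemokine receptor *Cxcr4*, and the secreted BMP antagonists *Chrd* and *Nog*. They were chosen by gene symbol, and all 10 were found among the 24347 gene rows of each sample. Expression was measured by RNA-seq in embryoid bodies (EBs), the aggregates that mouse embryonic stem cells (mESCs) form when they differentiate, at day 3 after LIF, the cytokine that maintains pluripotency, was withdrawn from serum medium. The cells are of strain 129/Ola. WT EBs were compared with EBs in which CRISPR/Cas9 had deleted the promoter of *Gm11549*, the gene of the NEMEP micropeptide (promoter KO), in 2 samples each. The samples are called WT 1 and WT 2 for WT, and promoter KO 1 and promoter KO 2 for the mutant. The deletion was made with a pair of guide RNAs in clones grown from single cells, and it is not given in the sources used here whether both mutant samples come from 1 clone. The study calls the samples biologically independent. If they share a clone or a culture, the p-values measure only the spread between these samples.

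When the primitive streak forms, Nodal signaling through SMAD2/3 and FOXH1 drives posterior epiblast cells out of pluripotency. High Nodal activity at the anterior end of the streak induces *Eomes*, then the node, axial mesendoderm and definitive endoderm genes, while cells further back take mesodermal fates under BMP and Wnt signaling. The anterior cells in turn secrete BMP antagonists that protect the forming axis from BMP.

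Values are given in FPKM, in which fragments are divided by the length of the transcript in kilobases and by the size of the library. This makes levels roughly comparable between genes and between samples. The number of called genes still changed when samples were centred on their medians, as given below. Depth was estimated from the value that a single fragment gives in genes with 1 annotated transcript. The WT samples came to 24700000 fragments (WT 1) and 21900000 (WT 2), and the promoter KO samples to 21500000 (promoter KO 1) and 20100000 (promoter KO 2). The targeted gene was at 0.750 and 0.522 FPKM in WT 1 and WT 2, at 0 in promoter KO 1 and at 0.0659 FPKM in promoter KO 2, which matches the labels. The samples are labelled as mesendoderm, and *T*, *Mixl1*, *Eomes* and *Gsc*, which mark it, were above 5 FPKM in all 4 samples.

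In day 3 EBs, 9 of the 10 genes lay lower in both promoter KO samples than in both WT samples. Such a separation in this direction was seen in 32.4% of all 11941 tested genes. *Nog* overlapped between the genotypes. In the other direction, 0 of the 10 genes and 32.9% of all tested genes were separated. Sizes differed widely among the genes. The mean of the promoter KO samples was 10.7% of the WT mean for *Lhx1*, 14.9% for *Cxcr4* and 19.7% for *Gsc*, while it lay between 46.0% and 61.4% for the other 7 genes. Genotypes were compared with limma on log2(FPKM + 1), over every gene with 1 FPKM or more in 2 or more samples and with Benjamini-Hochberg adjustment over all of them. This filter kept 9 of the 10 genes. An adjusted p under 0.05 was reached by 4 genes, all lower in promoter KO (*Lhx1*, *Gsc*, *Cxcr4* and *Hhex*), against 1.89% of all tested genes, and by 0 genes with higher values, against 1.68%. At an unadjusted p under 0.05 limma gave 9 lower and 0 higher, against 1863 lower and 1786 higher of all 11941 tested genes.

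**Figure D1:**
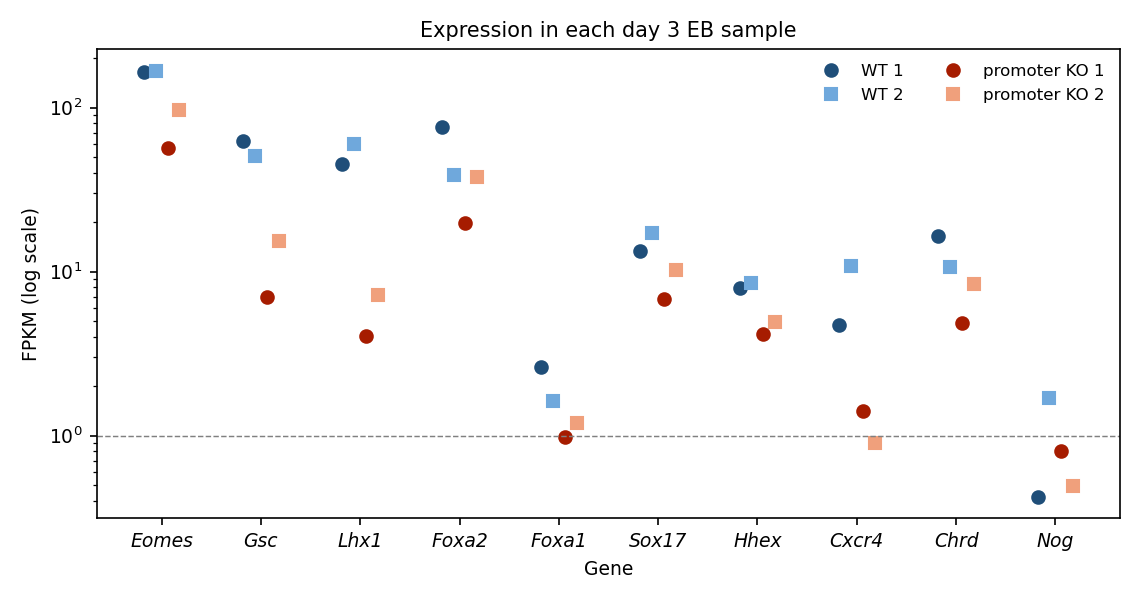
Expression of the 10 genes in each day 3 EB sample, in FPKM on a log axis, with WT in blue, promoter KO in red, circles for replicate 1 and squares for replicate 2. The dashed line marks 1 FPKM, the level used in the filter. In every gene except *Nog* both red points lie below both blue points, with *Foxa2* the closest (39.0 FPKM, WT 2, and 37.5 FPKM, promoter KO 2).

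*Eomes* encodes a T-box factor that acts upstream of several of the other genes, in both the endoderm and the cardiac mesoderm lineage. It stood at 166 FPKM (WT 1) and 168 FPKM (WT 2), against 56.3 FPKM (promoter KO 1) and 97.1 FPKM (promoter KO 2). The WT samples were nearly equal, and the spread lay between the promoter KO samples. The lowest WT value was 1.70 times the highest promoter KO value. Its log2 fold change of −1.16 (standard error 0.24) had an adjusted p of 0.0547 in limma, just short of the threshold. Without promoter KO 2, the sample nearer to WT, the adjusted p was 0.0139, without promoter KO 1 it was 0.0951 with a log2 fold change of −0.77, less than 2-fold, and over all alternatives it ranged from 0.0139 to 0.247. Of these 10 genes *Eomes* was the most highly expressed in all 4 samples, and it still ranked above 92.6% of all listed genes in promoter KO 1. In bulk samples such as these, fewer cells that express a gene and less RNA per cell cannot be told apart.

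The homeobox genes *Gsc*, *Lhx1* and *Hhex* encode factors that pattern the anterior streak and its descendants. *Gsc* encodes a transcriptional repressor active in the organizer and prechordal plate. It stood at 62.9 FPKM (WT 1) and 50.4 FPKM (WT 2), against 6.99 FPKM (promoter KO 1) and 15.3 FPKM (promoter KO 2). *Lhx1*, a LIM homeobox activator of the anterior streak and node, stood at 45.5 FPKM (WT 1) and 59.9 FPKM (WT 2), against 4.07 FPKM (promoter KO 1) and 7.21 FPKM (promoter KO 2). The genotypes were far apart in both genes, with the lowest WT value 3.30 times the highest promoter KO value for *Gsc* and 6.31 times for *Lhx1*. *Lhx1* fell by 3.04 on the log2 scale (standard error 0.25, adjusted p = 0.0208, limma), the 4th lowest log2 fold change of all tested genes, and *Gsc* fell by 2.33 (standard error 0.32, adjusted p = 0.0372), the 9th lowest. *Hhex* encodes a transcriptional repressor active in the anterior definitive endoderm and also in the anterior visceral endoderm. It stood at 7.93 FPKM (WT 1) and 8.56 FPKM (WT 2), against 4.17 FPKM (promoter KO 1) and 4.89 FPKM (promoter KO 2). Its change was smaller, but it had the smallest standard error of the 9 tested genes. It fell by 0.74 on the log2 scale (standard error 0.14, adjusted p = 0.0493, limma), a fold change that does not reach the 2-fold threshold used for the study's volcano plot.

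The calls depended on single libraries and on processing choices. Without WT 2 the adjusted p was 0.105 for *Lhx1*, 0.172 for *Gsc* and 0.239 for *Hhex*, and without promoter KO 1 it was 0.0676, 0.0763 and 0.202. Without WT 1 it was 0.0312, 0.0837 and 0.101. Without promoter KO 2, *Lhx1* and *Gsc* were at 0.0139 and *Hhex* at 0.0626. In each of these fits the genotype with 1 sample was assumed to vary like the other, and all of the log2 fold changes were still negative, from −3.39 to −2.70 for *Lhx1*, from −2.84 to −1.82 for *Gsc* and from −0.84 to −0.65 for *Hhex*. *Hhex* also missed the threshold with a pseudocount of 0.1 (adjusted p = 0.0510), with a mean of at least 5 FPKM (0.0570), after centring each sample on its median (0.0547), after quantile normalization (0.0526), without the trend (0.0639) and without the filter (0.146). *Gsc* missed it without the trend (0.0624) and without the filter (0.144), and *Lhx1* without the filter (0.133). Over all alternatives the adjusted p ranged from 0.0362 to 0.239 for *Hhex*, from 0.0139 to 0.172 for *Gsc* and from 0.00271 to 0.133 for *Lhx1*.

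**Figure D2:**
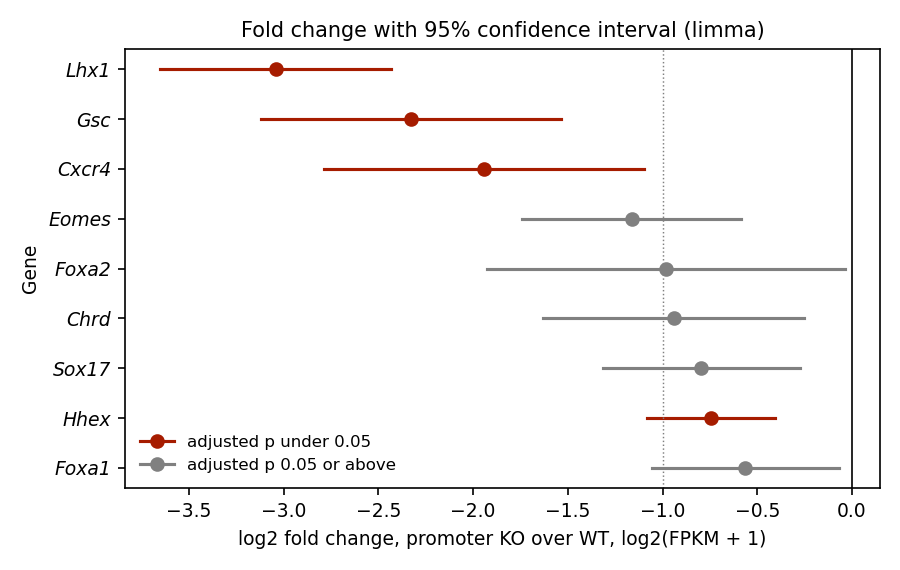
Log2 fold change of the 9 tested genes, promoter KO over WT on the log2(FPKM + 1) scale, with the 95% confidence interval from limma (2 samples in each genotype). The dotted line marks a 2-fold decrease. *Lhx1*, *Gsc* and *Cxcr4* lie below it with their whole interval, and *Hhex* has the narrowest interval, from −1.08 to −0.41.

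Promoter sequences are shown for the 4 genes with an adjusted p under 0.05. They are the 250 bases before the RefSeq start (GRCm38.p6), 5′ to 3′ in the direction of the gene, with capitals for TATAAA on either strand, the letters of a TATA box.
*Lhx1* promoter (chr11:84525535-84525784, minus strand): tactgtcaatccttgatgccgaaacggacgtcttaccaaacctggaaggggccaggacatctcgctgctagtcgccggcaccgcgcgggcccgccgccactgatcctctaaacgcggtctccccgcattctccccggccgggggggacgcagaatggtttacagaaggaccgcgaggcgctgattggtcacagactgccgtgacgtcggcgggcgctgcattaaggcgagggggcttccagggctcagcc
*Gsc* promoter (chr12:104473237-104473486, minus strand): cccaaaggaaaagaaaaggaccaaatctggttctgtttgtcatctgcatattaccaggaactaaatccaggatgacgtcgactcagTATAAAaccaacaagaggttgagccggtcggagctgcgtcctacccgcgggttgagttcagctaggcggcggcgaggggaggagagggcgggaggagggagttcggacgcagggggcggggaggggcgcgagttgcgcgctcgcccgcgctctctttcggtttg
*Hhex* promoter (chr19:37434591-37434840, plus strand): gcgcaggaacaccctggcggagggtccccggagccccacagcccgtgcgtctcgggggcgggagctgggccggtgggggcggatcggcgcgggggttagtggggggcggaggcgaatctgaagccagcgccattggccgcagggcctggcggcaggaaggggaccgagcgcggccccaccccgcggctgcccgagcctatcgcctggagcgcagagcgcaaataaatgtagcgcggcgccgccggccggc
*Cxcr4* promoter (chr1:128592300-128592549, minus strand): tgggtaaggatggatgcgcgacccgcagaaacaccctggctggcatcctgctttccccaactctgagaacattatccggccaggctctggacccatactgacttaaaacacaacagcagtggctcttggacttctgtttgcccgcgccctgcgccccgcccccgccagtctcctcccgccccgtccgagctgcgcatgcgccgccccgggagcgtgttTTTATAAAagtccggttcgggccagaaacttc
*Cxcr4* has the letters on both strands at overlapping positions, with the copy in the direction of the gene beginning at position −30 from the start, where TATA boxes usually lie. In *Gsc* they begin at position −164. *Lhx1* and *Hhex* have no such match in these bases. Positions are from the RefSeq start. In the GENCODE M21 annotation *Gsc* starts further upstream, at chr12:104473330, between TATAAA and the RefSeq start. *Hhex* starts further upstream there too, at chr19:37434810, inside the printed bases.

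RefSeq windows, which run from 250 bases before a start to 50 after it, matched 8 of the 10 genes by symbol, with 3 windows for *Foxa2* and 1 for each of the others, and *Sox17* and *Nog* were not matched. TATAAA was found in the windows of *Gsc* and *Cxcr4* and in 1 of the 3 of *Foxa2*, against 13.6% of the 32851 windows of all genes. Letters bound by factors that act in the streak were searched on both strands as well: AATCCACA for FOXH1, AGGTGTGA for T-box factors, GTCTAGAC for SMADs, TAATCC for homeodomains of the bicoid type such as GSC, and TAATTA for LIM homeodomains. TAATCC and AATCCACA can overlap in the letters AATCC. None of the 10 windows held any of them, and they occur in 0.855%, 1.28%, 0.213%, 7.06% and 5.29% of all windows. The absence says only that these letters are not in these windows. All 10 windows held more CpG dinucleotides than the median window, at 10 to 37 against 7, and their GC content ran from 47.3% in *Eomes* to 78.3% in *Chrd*, against a median of 52.7%.

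The forkhead genes *Foxa2* and *Foxa1* encode pioneer factors that open chromatin at endoderm genes, *Foxa2* also in the node and axial mesendoderm. *Foxa2* stood at 76.5 FPKM (WT 1) and 39.0 FPKM (WT 2), against 19.7 FPKM (promoter KO 1) and 37.5 FPKM (promoter KO 2). WT 2 and promoter KO 2 were almost level, and the genotypes were apart by a ratio of only 1.04 between these samples. Its log2 fold change of −0.98 (standard error 0.39) did not pass the test (adjusted p = 0.154, limma), and it had the widest confidence interval of the 9 tested genes, from −1.93 to −0.03. *Foxa1*, which comes on later in the endoderm, stood low, at 2.61 FPKM (WT 1) and 1.62 FPKM (WT 2), against 0.982 FPKM (promoter KO 1) and 1.19 FPKM (promoter KO 2). At the estimated depths these are 193, 106, 63.2 and 71.6 fragments, so that counting error weighs more on *Foxa1* than on the genes above. The log2 fold change of *Foxa1* was −0.56 (standard error 0.20, adjusted p = 0.132, limma), and the log2 ratio of its mean FPKM, with no pseudocount, was −0.96, nearly that of *Foxa2*, −1.01. Both genes had the same order of samples, with WT 1 highest and promoter KO 1 lowest, although in *Foxa2* WT 1 stood much further from the rest.

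*Sox17* encodes the HMG box factor that, after *Eomes* and with *Foxa2*, specifies definitive endoderm. It stood at 13.3 FPKM (WT 1) and 17.2 FPKM (WT 2), against 6.77 FPKM (promoter KO 1) and 10.2 FPKM (promoter KO 2). The lowest WT sample was 1.31 times the highest promoter KO sample. The log2 fold change of −0.79 (standard error 0.21) did not pass the test (adjusted p = 0.0779, limma), and its 95% confidence interval ran from −1.31 to −0.27. *Sox17* was thus close in size to *Hhex*, with a wider spread within both genotypes. With 1 sample left out, its log2 fold change ran from −1.06 to −0.53. *Sox17* passed only with the replicate block (adjusted p = 0.0261, limma), although the labels do not pair the samples.

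*Cxcr4* encodes the receptor of the chemokine CXCL12, and it is widely used to sort definitive endoderm, although migrating mesoderm expresses it too. It stood at 4.74 FPKM (WT 1) and 10.8 FPKM (WT 2), against 1.41 FPKM (promoter KO 1) and 0.901 FPKM (promoter KO 2). WT 2 stood well above WT 1, and both promoter KO samples were near 1 FPKM. *Cxcr4* fell by 1.94 on the log2 scale (standard error 0.34, adjusted p = 0.0472, limma). With no pseudocount, the log2 ratio of its mean FPKM was −2.75, since the pseudocount shrinks changes at such levels. Its adjusted p was 0.162 without WT 2, 0.175 without promoter KO 1, 0.0870 without promoter KO 2 and 0.0306 without WT 1, and it was 0.0547 after centring on sample medians, 0.0536 after quantile normalization, 0.0677 without the trend and 0.146 without the filter, within a range of 0.0285 to 0.175 over all alternatives. The ligand gene *Cxcl12* went the other way and rose by 0.62 on the log2 scale (adjusted p = 0.0433, limma), at 21.1 and 18.9 FPKM (WT 1 and WT 2) against 30.8 and 31.8 FPKM (promoter KO 1 and promoter KO 2). The alternative receptor of CXCL12, *Ackr3*, named after its values were seen, passed the filter through WT alone and missed the threshold (log2 fold change −0.59, adjusted p = 0.103, limma).

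*Chrd* and *Nog* encode Chordin and Noggin, which bind BMPs outside the cell and keep them from their receptors. *Chrd* stood at 16.4 FPKM (WT 1) and 10.6 FPKM (WT 2), against 4.87 FPKM (promoter KO 1) and 8.36 FPKM (promoter KO 2). The order of its samples was that of *Foxa2*, and its log2 fold change of −0.94 (standard error 0.28) did not pass the test (adjusted p = 0.0947, limma). *Nog* stood at 0.425 FPKM (WT 1) and 1.70 FPKM (WT 2), against 0.807 FPKM (promoter KO 1) and 0.494 FPKM (promoter KO 2), or an estimated 15.7, 55.6, 26.0 and 14.9 fragments. Only WT 2 stood apart, both promoter KO samples lay above WT 1, and no difference between the genotypes can be drawn from these values. *Nog* reached 1 FPKM in 1 sample and was therefore not tested. When every gene above 0 in any sample was tested, its log2 fold change was −0.25 (adjusted p = 0.685, limma).

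Of the 11 other secreted BMP antagonists listed, 5 were tested, and 2 of them fell in promoter KO. *Fst* (Follistatin), which also binds Activin, was the most abundant of them, at 138 and 116 FPKM (WT 1 and WT 2) against 58.8 and 76.1 FPKM (promoter KO 1 and promoter KO 2) (log2 fold change −0.91, adjusted p = 0.0422, limma). *Cer1* (Cerberus), an antagonist of Nodal, BMP and Wnt made by anterior endoderm, fell by 1.80 on the log2 scale (adjusted p = 0.0233), at 36.6 and 26.1 FPKM (WT) against 7.42 and 8.93 FPKM (promoter KO). Of the 5 BMP ligands, 4 were tested, and *Bmp7* fell by 1.59 (adjusted p = 0.0233) while 0 rose.

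In WT EBs *Eomes* stood alone at the top of the 10 genes, followed by *Foxa2*, *Gsc* and *Lhx1*, whose WT ranges overlapped between 39.0 and 76.5 FPKM. *Sox17* and *Chrd* overlapped between 10.6 and 17.2 FPKM, *Hhex* and *Cxcr4* between 4.74 and 10.8 FPKM, with *Cxcr4* just above *Chrd* in WT 2, and *Foxa1* and *Nog* lay at or under 2.61 FPKM. In promoter KO EBs *Eomes* and *Foxa2* had the highest levels, while *Lhx1* and *Gsc* dropped to levels near those of *Sox17*, *Chrd* and *Hhex*, from 4.17 to 10.2 FPKM, with *Lhx1* in promoter KO 1 just below them (4.07 FPKM) and *Gsc* in promoter KO 2 above them (15.3 FPKM), and *Cxcr4* joined *Foxa1* and *Nog* at 0.494 to 1.41 FPKM. In terms of rank, *Lhx1* went from the 91.1 and 93.2 percentiles of all listed genes in WT 1 and WT 2 to the 63.3 and 69.1 percentiles in promoter KO 1 and promoter KO 2.

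Samples of the same genotype also differed in these genes. Promoter KO 2 was above promoter KO 1 in 8 of the 10, all but *Cxcr4* and *Nog*, and thus nearer to WT. Among all tested genes promoter KO 2 was the higher in 53.5%, and among the 226 genes that were lower in promoter KO it was the higher in 82.3%, so that the share in these 10 genes is near that of the lower genes as a whole. WT 2 was the higher WT sample in 6 of the 10 genes, in 49.1% of all tested genes and in 81.4% of the lower genes. The lower genes include 4 of these 10 genes, and whether the shares differ was not tested in either genotype. *Foxa2*, *Chrd*, *Foxa1* and *Gsc* were higher in WT 1, and *Lhx1*, *Cxcr4*, *Nog*, *Sox17*, *Hhex* and, by a small margin, *Eomes* were higher in WT 2. Among the 9 tested members, the widest gaps were −0.95 for *Foxa2* and 1.04 for *Cxcr4*, as WT 2 minus WT 1 on the log2(FPKM + 1) scale. The median size of this gap was 0.39 over the 9 tested members and 0.13 over all tested genes. Between the promoter KO samples the medians were 0.67 and 0.14. Genes of the posterior streak and early mesoderm were higher in WT 2 throughout, with *Mesp1* at 27.0 FPKM in WT 1 and 101 FPKM in WT 2. With WT 1 left out, the log2 fold changes of the 4 genes that were higher in WT 1 were −0.50 for *Foxa2*, −0.33 for *Foxa1*, −0.65 for *Chrd* and −2.17 for *Gsc*.

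**Figure D3:**
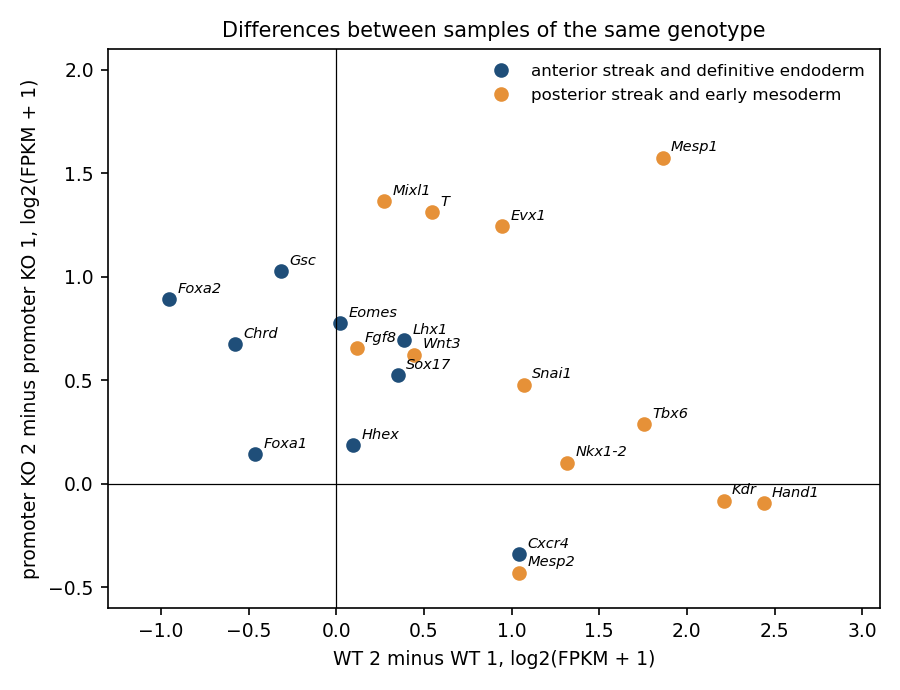
Differences between samples of the same genotype for the 9 tested genes (blue) and the 12 tested genes of the posterior streak and early mesoderm (orange), as WT 2 minus WT 1 on the horizontal axis and promoter KO 2 minus promoter KO 1 on the vertical axis, both in log2(FPKM + 1). All orange points lie right of 0, while *Foxa2*, *Chrd*, *Foxa1* and *Gsc* lie left of it, and most points of both colours lie above 0 on the vertical axis.

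The median log2 fold change was −0.98 over the 9 tested genes and 0.00 over all tested genes. By the thresholds of the study's volcano plot, a change of more than 2-fold together with an unadjusted p under 0.05, applied here to the limma fit on log2(FPKM + 1), 4 of them were lower (*Lhx1*, *Gsc*, *Cxcr4* and *Eomes*), against 1.63% of all tested genes, and 0 were higher, against 1.40%. *Foxa2* and *Chrd*, with unadjusted p-values of 0.0444 and 0.0153 (limma), missed the 2-fold limit on this scale but not in the ratio of mean FPKM (49.5% and 48.9% of WT), so that their call depends on how the fold change is computed. Among 16 genes of the posterior streak and early mesoderm, 12 were tested and had a median of −1.72, with 4 lower at an adjusted p under 0.05 and 0 higher, and 10 lower and 0 higher by the study's thresholds. *Tbx6*, *Kdr* and *Hand1*, named after their values were seen, reached 1 FPKM only in WT, so that they entered this median through the group where they are higher. The 4 with an adjusted p under 0.05 were *Mesp1*, *Mixl1*, *Evx1* and *Fgf8*, with log2 fold changes of −4.14, −2.74, −2.59 and −1.71 and adjusted p-values of 0.0467, 0.0389, 0.0472 and 0.0310 in limma. *Lhx1*, *Gsc* and *Cxcr4* lay below the posterior median, and *Eomes*, *Foxa2*, *Foxa1*, *Sox17*, *Hhex* and *Chrd* lay closer to 0 than it. Whether the lists differ was not tested.

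Other genes of the anterior streak, node and definitive endoderm did not move as 1 group. Of 17 listed, 11 were tested, with a median log2 fold change of 0.01, and 3 fell at an adjusted p under 0.05: *Cer1*, *Gata6* and *Dkk1*. *Gata6*, a GATA factor of endoderm and cardiac mesoderm, was at 12.8 and 21.7 FPKM (WT 1 and WT 2) against 4.13 and 5.18 FPKM (promoter KO 1 and promoter KO 2) (adjusted p = 0.0389, limma). *Dkk1*, a secreted Wnt antagonist, was at 7.34 and 8.94 FPKM (WT) against 3.17 and 3.35 FPKM (promoter KO) (adjusted p = 0.0371). Named after their values were seen, *Otx2*, a partner of *Lhx1* and *Gsc* in the anterior streak that the epiblast also expresses, was at 61.9 to 71.4 FPKM in all 4 samples, and *Trh* had higher values in promoter KO (log2 fold change 1.34, adjusted p = 0.0652).

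Upstream of these genes, 18 of 19 genes of the Nodal pathway were tested, and 1 rose and 1 fell. *Nodal*, the ligand, was at 75.1 and 62.3 FPKM (WT 1 and WT 2) against 117 and 112 FPKM (promoter KO 1 and promoter KO 2), a log2 fold change of 0.74 (adjusted p = 0.0389, limma), so that it went against the direction of the 9 tested genes. Its coreceptor gene *Tdgf1* (Cripto) fell by 0.55 (adjusted p = 0.0422). At an unadjusted p under 0.05 limma gave 7 lower and 4 higher in this list. By the study's thresholds 1 gene was lower and 1 higher. These were *Cfc1* (Cryptic; log2 fold change −2.25, adjusted p = 0.0583, limma) and *Gdf3* (1.54, 0.0608), both named after their values were seen. Of 9 partners of the encoded proteins, such as the LIM cofactors of LHX1 and the TLE corepressors of GSC and HHEX, 8 were tested and *Cxcl12* alone passed. Of 7 paralogs, 4 were tested, and *Sox7*, a relative of *Sox17*, rose by 1.14 (adjusted p = 0.0371), at 0.289 and 0.221 FPKM (WT) against 1.87 and 1.66 FPKM (promoter KO), so that it passed the filter through promoter KO alone.

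Visceral endoderm, an extraembryonic tissue, also expresses *Foxa2*, *Sox17*, *Hhex*, *Eomes* and *Lhx1*. Most of its listed markers and those of primitive endoderm were higher in promoter KO EBs, opposite to these genes. Of the 14 markers, 12 were tested, and 7 rose and 0 fell at an adjusted p under 0.05. *Cubn*, *Sox7* (counted among the paralogs too) and *Apob*, the last named after its values were seen, reached 1 FPKM only in promoter KO, so that the filter admitted them through the group where they are higher, and *Cubn* and *Sox7* are among the 7. *Rbp4*, named after its values were seen, was lower in both promoter KO samples (log2 fold change −0.47, adjusted p = 0.112, limma). *Gata6*, which fell, was counted among the other anterior genes and is not one of these markers. The same holds for *Gata4*, named after its values were seen, which overlapped between the genotypes (log2 fold change 0.18, adjusted p = 0.842, limma). Among the 7, the largest changes on the log2(FPKM + 1) scale were in *Lama1* (log2 fold change 2.76, adjusted p = 0.0208, limma), *Amn* (2.56, 0.0208), *Cubn* (1.95, 0.0245) and *Dab2* (1.86, 0.0408). In the log2 ratio of mean FPKM *Cubn* came before *Lama1* (4.10 against 3.33). The summed level of the 14 markers was 40.3 and 40.6 FPKM (WT 1 and WT 2) against 160.7 and 138 FPKM (promoter KO 1 and promoter KO 2). The most abundant was *Rhox5*, at 18.7 and 18.8 FPKM (WT) against 88.7 and 42.9 FPKM (promoter KO), and 0 markers were at 0 in every sample. The part of these cells in the levels of the 10 genes was not tested.

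**Figure D4:**
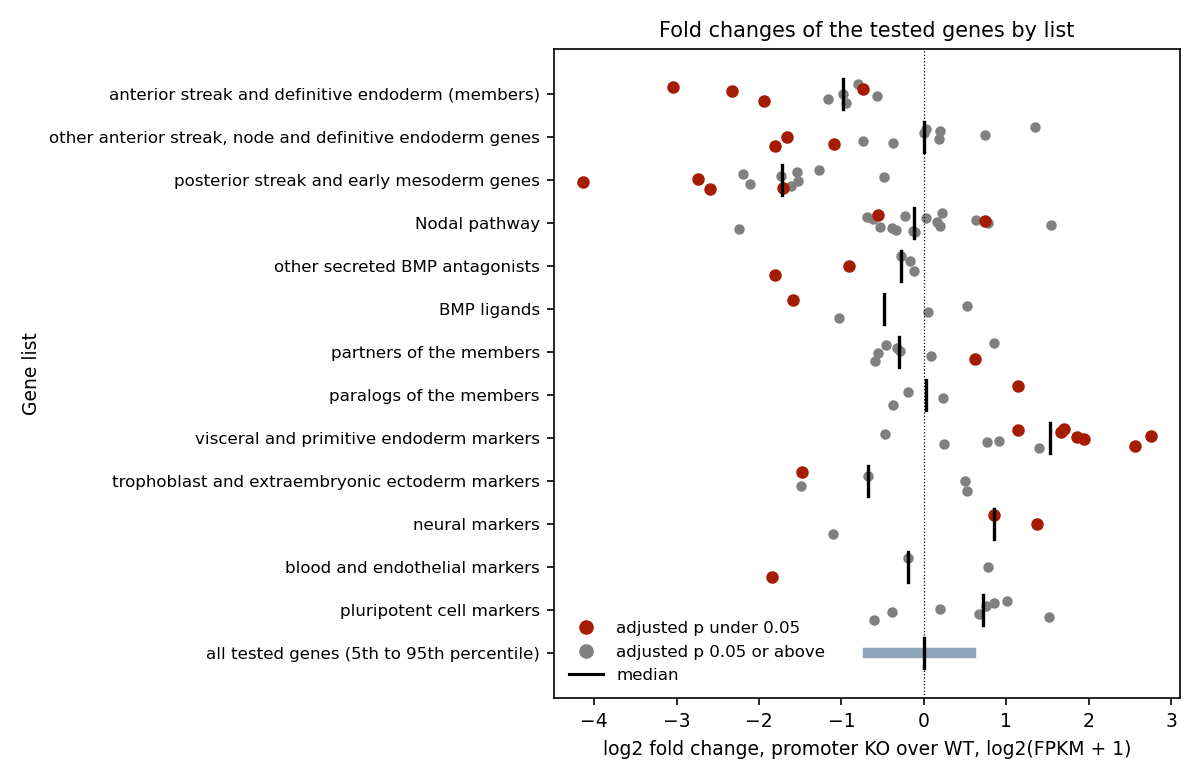
Log2 fold changes, promoter KO over WT on the log2(FPKM + 1) scale, of the tested genes in each list, with genes at an adjusted p under 0.05 in red and the list's median as a black bar. The blue band spans the 5th to 95th percentile of all 11941 tested genes. The 9 tested genes of the top row all lie left of 0, and the visceral and primitive endoderm markers lie mostly right of it.

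Markers of other cell types moved less uniformly. Of 7 trophoblast markers 5 were tested and *Tfap2c* fell (log2 fold change −1.48, adjusted p = 0.0422, limma), with *Cdx2*, the most abundant and also a gene of the posterior streak, at 5.77 and 25.4 FPKM (WT) against 2.49 and 5.51 FPKM (promoter KO). Of 10 neural markers 3 were tested, and *Neurod1* and the most abundant, *Tubb3*, rose (log2 fold changes 1.38 and 0.85, adjusted p = 0.0371 and 0.0393). Of 7 blood and endothelial markers 3 were tested, and the most abundant, *Etv2*, fell (log2 fold change −1.84, adjusted p = 0.0244). Genes of the same lists went the other way, *Ascl2* and *Esx1* of the trophoblast list, *Nes* of the neural list and *Pecam1* of the endothelial list, named after their values were seen, with log2 fold changes of 0.52, 0.50, −1.10 and 0.78 (adjusted p = 0.0750, 0.284, 0.0831 and 0.107, limma). *Neurod1* reached 1 FPKM only in promoter KO, so that it passed the filter through the group where it is higher. All 8 markers of pluripotent cells were tested, and limma called 0 of them in either direction at an adjusted p under 0.05, while an unadjusted p under 0.05 was reached by 4 with higher and 1 with lower values. The most abundant, *Pou5f1*, was between 1188 and 1545 FPKM in the 4 samples. By the study's thresholds 2 pluripotent markers were higher, against 1.40% of all tested genes, and 0 were lower. These were *Esrrb* and *Zfp42*, named after their values were seen, with log2 fold changes of 1.52 and 1.01. In each of these lists 0 markers were at 0 in every sample. As for the visceral endoderm, their part in the levels of the 10 genes was not tested.

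The 10 genes lie on 7 chromosomes, and 0 of them on chromosome 3, which carries *Gm11549*. In the GENCODE M21 annotation of GRCm38, *Lhx1* (chr11:84518284-84525535, minus strand, 5 exons in its longest transcript) starts 124 bases from the divergent noncoding gene *Lhx1os*, named here after its values were seen. *Lhx1os* was at 1.65 and 3.89 FPKM (WT 1 and WT 2) against 0.119 and 0.656 FPKM (promoter KO 1 and promoter KO 2), the same order of samples as *Lhx1*. It reached 1 FPKM only in WT and so passed the filter through the group where it is higher, and its adjusted p was 0.0678 (log2 fold change −1.40, limma). *Gsc* (chr12:104471209-104473330, minus strand, 3 exons), *Hhex* (chr19:37434810-37440731, plus strand, 4 exons) and *Cxcr4* (chr1:128588199-128592293, minus strand, 2 exons) overlap no annotated gene. On the other strand, *Gm10000* adjoins *Gsc* with a gap of 0 bases, and *Gm38345* lies 153 bases from *Hhex*. Both reach into the promoter sequences printed above, as *Lhx1os* does into that of *Lhx1*. Neither *Gm10000* nor *Gm38345* is among the gene rows measured here. *Chrd* (chr16:20733127-20742384, plus strand) overlaps *Thpo* on the other strand by 1385 bases, and *Thpo*, also named after its values were seen, had the sample order of *Chrd*, from 0.944 FPKM in promoter KO 1 to 2.94 FPKM in WT 1. *Eomes* and *Sox17* overlap noncoding genes on the other strand by 574 and 804 bases. The sources used here do not say whether the counting used strand, and without strand the reads of overlapping genes cannot be told apart. Outside these overlaps, 0 of the 10 genes share a stretch of at least 200 bases at 95% identity with the transcripts of another gene.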

How the data were processed

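RNA from day 3 EBs, 2 WT and 2 promoter KO samples, was sequenced, and the authors deposited 1 table of FPKM values per sample, already normalized for transcript length and library size. The study's methods name TopHat, Cufflinks with GENCODE M4 annotation and Cuffdiff on mm10, and call the unit RPKM, whereas the submitters' processing notes name HISAT2 2.1.0, Cufflinks and Cuffnorm. Which of these made the tables is not settled by the sources used here, and the values were taken as FPKM. Genotype came from the labels. Counts were not used.

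On log2(FPKM + 1), genes reaching 1 FPKM in 2 or more samples were tested with limma 3.58.1 (R 4.3.3; lmFit, eBayes with an intensity trend, 3.99 prior degrees of freedom), two-sided, with Benjamini-Hochberg adjustment. An exact permutation test of 2 samples against 2 cannot give a p below 0.333. The members and gene lists were chosen with earlier results of these data known. All members were named, with, from each other list, up to 4 genes with an adjusted p under 0.05. From each list of cell type markers, the most abundant marker and any marker at 0 in every sample were named too. Alternatives were a pseudocount of 0.1, no filter, a mean of 5 FPKM, no trend, median centring, quantile normalization, a replicate block, each sample left out, the study's thresholds and the log2 ratio of mean FPKM. The fit was tested on simulated data with independent samples, which cannot show how it does if samples share a clone or a culture. Depth was estimated with an assumed fragment length of 200 bases. Copies were sought with BLAST 2.17.0, promoters came from RefSeq (GRCm38.p6), and tables and figures were made with Python 3.11.15, numpy 2.4.6, pandas 2.3.3 and matplotlib 3.10.9.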

Additional observations from a re-analysis of the deposited data

How the results depend on the processing

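All 9 tested members had negative log2 fold changes under every alternative that tested them, and 0 were higher in promoter KO at an adjusted p under 0.05 under any. The number lower, 4, was 3 with a pseudocount of 0.1 and 4 at the study's thresholds. It was 2 with a mean of at least 5 FPKM, where *Cxcr4* and *Foxa1* are not tested, 2 after median centring, 2 after quantile normalization, 1 (*Lhx1*) without the trend, and 0 without the filter, where limma called 0 genes and 8 members were lower at an unadjusted p under 0.05. Leaving out each sample gave 0 to 3 members. The cause of these differences was not tested.

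Among all tested genes, 226 were lower and 201 higher. The counts were 108 and 95 at a mean of 5 FPKM, 27 and 55 without the trend, 0 and 0 without the filter (1982 and 2077 at an unadjusted p under 0.05), and 126 and 157 after median centring. With 1 sample left out they ran from 0 to 248 lower and from 0 to 238 higher, with 0 in both directions without WT 2 or without promoter KO 1 (limma; 976 and 899, and 1043 and 966, at an unadjusted p under 0.05). With the replicate block, 667 were lower and 535 higher, and 6 members were lower. *Eomes* (adjusted p = 0.0236, limma) and *Sox17* (0.0261) were among these 6 but not among the 4 of the main fit. The labels give same-numbered samples no shared origin, and the correlation of their deviations was 0.0348, so the numbers were not taken to pair the samples. The 7 visceral and primitive endoderm markers called higher were 3 at a mean of 5 FPKM, 4 without the trend, and 0 without the filter, without WT 2 or without promoter KO 1. The 4 posterior genes called lower were 2 with a pseudocount of 0.1, at a mean of 5 FPKM or after median centring, 7 with the replicate block, and 0 without the trend, the filter, WT 2 or promoter KO 1. The 3 other anterior genes called lower were 1 without promoter KO 2, and 0 without the filter, WT 2 or promoter KO 1. In the main fit each other list had at most 2 calls in a direction, and without the filter 0. Without the trend, 0 genes of the Nodal pathway, 0 partners and 0 trophoblast markers were called in either direction. The lists of other BMP antagonists, BMP ligands, paralogs, neural markers, and blood and endothelial markers kept 1 call each. Depth limits *Nog*, at an estimated 14.9 to 55.6 fragments.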
